A study of Mus musculus with 15 samples.

Results

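Hox genes encode transcription factors that give cells their position along the body axis and along the limb. The members described here are all rows of the deposited gene count table whose symbol begins with Hoxa, Hoxb, Hoxc or Hoxd, coding genes and non-coding RNAs alike. These were 36 of 20406 genes. The Hox A cluster gave 14 of them (11 coding genes, Hoxaas2, Hoxaas3 and Hoxa11os), Hox B gave 9 (8 coding genes and Hoxb3os), Hox C gave 7 coding genes and Hox D gave 6 (5 coding genes and Hoxd3os1). Another 9 annotated genes of the clusters (Hoxb1, Hoxb13, Hoxb5os, Hoxc12, Hoxc13, Hoxd1, Hoxd12, Hoxd13 and Hoxd3) were not analysed here.

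RNA was sequenced from the plantaris, a fast muscle of the lower hindlimb, of male mice. All groups carried the HSA-GFP transgene, a tetracycline-inducible fluorescent histone under the human skeletal actin promoter that marks nuclei of muscle fibres, but the RNA came from whole muscle. The groups were untrained mice of 6 months (6M_UT), mice of 6 months after 8 weeks of progressive weighted wheel running from 4 months of age (6M_PoW), untrained mice of 9 months (9M_UT) and mice of 9 months that trained for 8 weeks and then detrained for 12 weeks (9M_PoW+DT). A further group, 6M_POW_LD, is titled as trained, with replicate numbers 4 to 6 and LD identifiers whose meaning was not found in the labels. There were 5 groups of 3 libraries. In 9 libraries title and treatment field disagreed: the field exchanged both 9-month groups and named the LD libraries sedentary. Groups were therefore taken from the titles. Library identifiers also changed with age and with LD, so that age, LD and library series cannot be told apart. The labels do not state that replicates came from separate mice, so that a p-value here reflects the spread between libraries, which may be technical.

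Vertebrate Hox genes lie in 4 clusters, and genes at the same position in different clusters are paralogs, numbered from group 1 at the 3′ end to group 13 at the 5′ end. In the embryo, genes nearer the 5′ end are switched on later and further back along the trunk, and the 5′ genes of the A and D clusters pattern the limb from its base to the foot. Many adult tissues retain part of the pattern laid down in the embryo. Hox proteins bind DNA through the homeodomain, encoded by the homeobox, often together with PBX, MEIS and PKNOX cofactors, and Polycomb and Trithorax complexes keep the clusters silent or active.

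The homeoboxes of the Hox10 genes are printed here because these 3 paralogs, alike in sequence, gave both the highest level of all members and one of the lowest. Each homeobox is 180 bases and lies in exon 2 of 2. Capitals mark bases that differ from Hoxc10. The Hoxc10 homeobox is at chr15:102970848-102971027 (plus strand), that of Hoxa10 at chr6:52232554-52232733 (minus strand) and that of Hoxd10 at chr2:74694141-74694320 (plus strand), all on GRCm38 (mm10), with coding exons from GENCODE M21.
Hoxc10: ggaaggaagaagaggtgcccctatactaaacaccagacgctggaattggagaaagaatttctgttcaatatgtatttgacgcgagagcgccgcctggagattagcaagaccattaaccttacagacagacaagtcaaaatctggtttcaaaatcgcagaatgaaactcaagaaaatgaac
Hoxa10: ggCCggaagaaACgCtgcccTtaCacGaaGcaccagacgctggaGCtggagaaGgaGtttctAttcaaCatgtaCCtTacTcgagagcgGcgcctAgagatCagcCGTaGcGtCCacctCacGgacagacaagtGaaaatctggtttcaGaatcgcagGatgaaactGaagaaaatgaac
Hoxd10: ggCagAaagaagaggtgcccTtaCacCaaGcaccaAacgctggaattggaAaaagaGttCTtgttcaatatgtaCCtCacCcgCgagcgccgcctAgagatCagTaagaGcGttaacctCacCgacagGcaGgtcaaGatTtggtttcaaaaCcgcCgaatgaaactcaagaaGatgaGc
Hoxa10 differed from Hoxc10 at 35 bases (80.6% identity) and Hoxd10 at 31 (82.8%). Over the whole transcripts, the longest run of bases shared with Hoxc10 was 17 in Hoxa10 and 16 in Hoxd10. The 50-base words of Hoxc10 that did occur elsewhere, 6.40% of them, were shared with Hoxc5, whose annotated exons overlap those of Hoxc10 by 166 bases on the same strand, and none with Hoxa10 or Hoxd10.

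The promoters of Hoxa10 and Hoxd10 are printed because their genes sat near opposite ends of the range of levels and both are in the RefSeq table. RefSeq (GRCm38.p6) gave 300-base windows, from 250 bases before to 50 after a start, for 20 of the 36 members (22 windows). Hoxa10 had a pair of starts, with windows at chr6:52234890-52235189 and chr6:52240805-52241104 (both minus strand), and the window of Hoxd10 was at chr2:74691641-74691940 (plus strand). Capitals mark CG.
Hoxa10, start inside the gene: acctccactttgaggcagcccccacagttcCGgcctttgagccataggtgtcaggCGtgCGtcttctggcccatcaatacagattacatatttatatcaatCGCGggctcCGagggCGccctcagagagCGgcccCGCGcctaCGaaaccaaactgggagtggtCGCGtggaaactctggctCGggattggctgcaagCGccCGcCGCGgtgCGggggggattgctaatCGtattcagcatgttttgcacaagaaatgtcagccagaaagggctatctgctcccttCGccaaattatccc
Hoxa10, outer start: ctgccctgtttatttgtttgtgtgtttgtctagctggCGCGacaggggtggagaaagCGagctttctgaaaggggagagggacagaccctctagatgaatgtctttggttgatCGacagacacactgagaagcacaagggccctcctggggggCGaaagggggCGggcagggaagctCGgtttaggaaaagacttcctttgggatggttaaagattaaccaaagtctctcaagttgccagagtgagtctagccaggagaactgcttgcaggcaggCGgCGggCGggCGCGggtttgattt
Hoxd10: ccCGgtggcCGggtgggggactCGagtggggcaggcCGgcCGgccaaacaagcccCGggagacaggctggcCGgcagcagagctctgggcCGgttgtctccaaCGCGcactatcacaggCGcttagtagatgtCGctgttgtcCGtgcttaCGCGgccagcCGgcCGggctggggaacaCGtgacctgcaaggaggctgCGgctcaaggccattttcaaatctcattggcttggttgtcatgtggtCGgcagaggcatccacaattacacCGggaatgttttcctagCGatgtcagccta
The Hoxa10 windows held 21 and 12 CG pairs and the Hoxd10 window 22. Across members the median was 14.5 CG pairs per window (range 4 to 45), against 7 over all 32851 promoters in the RefSeq table, and 17 of the 22 windows were at or above that overall median. The letters TGATTNAT, searched on both strands, occurred in 2 member windows (Hoxa2 and one start of Hoxd11) and in 3.22% of all promoters.

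Libraries held 18865048 to 27688842 expected counts, and the 10 most abundant genes took 24.9% to 27.9% of them. A level is given in CPM, the count relative to the scaled library total, and single Hox genes are ranked as CPM per kilobase (kb) of exon. Plain CPM, by which some sums and the highest members were ordered, is not corrected for gene length. Fast fibre markers summed to 60689 to 94272 CPM and slow fibre markers to 58.9 to 563 CPM. Markers of satellite cells other than Des, which muscle fibres also express, summed to 46.9 to 79.5 CPM, of fibro-adipogenic progenitors, which make the connective tissue, to 378 to 656 CPM and of tenocytes to 70.5 to 180 CPM. Most of the satellite cell sum without Des came from Sdc4 and Cdh15, with means of 31.9 and 20.1 CPM. The other markers in it averaged 0.431 (Calcr) to 4.76 CPM (Chodl), with Pax7 at 1.88. Of 5 bone and cartilage markers, 2 (Sp7 and Col2a1) were analysed here, and they were at or below 0.370 CPM in sum. In whole muscle, fewer cells of a type and less RNA per cell cannot be told apart.

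All 36 members had counts in some library. So did each of the 20406 genes deposited, whose smallest sum over the libraries was 10. A member was taken as above the floor in a library with more than 3 counts: 22 members were above it in all 15 libraries, and 14 in some, so that no member was at or under it throughout. The C and A clusters, and within each their genes of groups 9 to 13, carried most of the signal. In Hox D, groups 9 to 13 summed to 1.36 CPM per kb and groups 1 to 8 to 3.02. Hoxc12, Hoxc13, Hoxd12 and Hoxd13, nearest the 5′ ends of Hox C and Hox D, were not analysed here. Summed over coding genes, the level per kb was 52.8 CPM per kb for Hox C, 26.3 for Hox A, 4.38 for Hox D and 1.76 for Hox B. Hoxc10 alone made up 39.98 CPM per kb, and the other 6 coding genes of Hox C summed to 12.9, below Hox A. The 11 coding genes of groups 9 to 13 summed to 69.7 CPM per kb and the 20 of groups 1 to 8 to 15.6. The plot of level against paralog group shows the highest levels at groups 10 to 13 in Hox A and at groups 9 to 11 in Hox C, low levels throughout Hox B and a fall from group 8 to group 11 in Hox D.

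**Figure D1:**
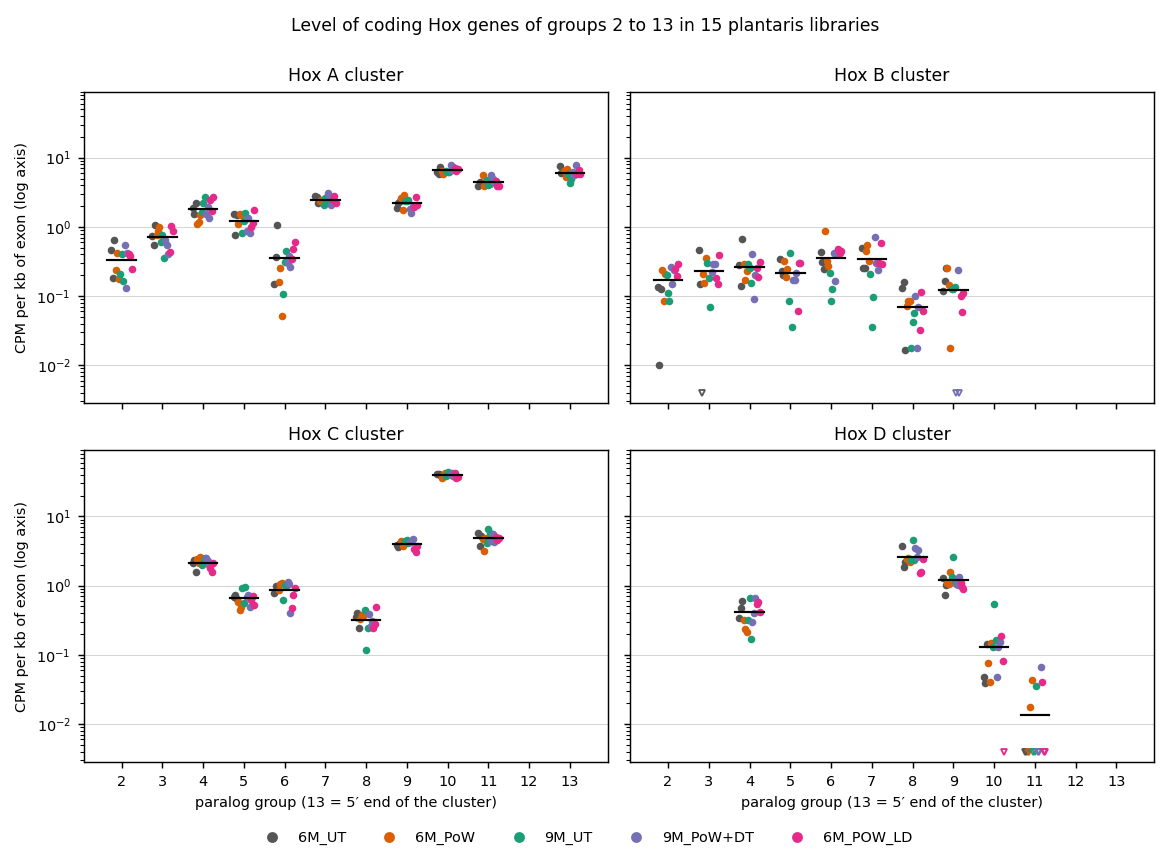
Level of the coding Hox genes of paralog groups 2 to 13, in CPM per kb of exon on a log axis, against paralog group, with 1 panel per cluster. Points are libraries coloured by group, bars are means over the 15 libraries, and open triangles at the bottom are libraries with 0 counts. Hoxc10 stands at 35.7 to 43.6 CPM per kb, above every other gene in every library, while Hoxd11 was at 0 counts in 10 libraries.

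Hoxc10 was the highest member in each library. Hox10 genes are known for setting the lumbar identity of vertebrae, where ribs do not form, and for patterning the upper hindlimb. Hoxc10 was measured at 79.0, 77.7 and 75.4 CPM in 6M_UT, 69.7, 76.0 and 80.4 in 6M_PoW, 73.1, 83.3 and 82.1 in 9M_UT, 76.0, 81.0 and 73.0 in 9M_PoW+DT and 80.0, 68.1 and 70.0 in 6M_POW_LD. The 15 values ran from 68.1 to 83.3 CPM with a mean of 76.3 ± 4.77 (SD) and a coefficient of variation of 6.25%, the smallest of any member, and all 5 groups overlapped. Per kb of exon Hoxc10 stood at 40.0 CPM. Its paralog Hoxa10 gave 20.1, 18.8 and 24.2 CPM in 6M_UT, 20.9, 19.1 and 20.4 in 6M_PoW, 21.03, 20.1 and 20.4 in 9M_UT, 25.3, 21.4 and 23.7 in 9M_PoW+DT and 23.5, 21.1 and 22.2 in 6M_POW_LD. Hoxa10 was second per kb, at 6.57 CPM, and the ratio of Hoxc10 to Hoxa10 per kb had a median of 5.95 and ran from 5.15 to 7.11 over the libraries. Hoxd10, the third Hox10 gene, stood at 0.129 CPM per kb, with 0 to 18 counts per library and 9 libraries above the floor.

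Hoxa13 marks the most distal limb, the foot, in the embryo, as well as the lower gut and genital tract. It ranked next after Hoxa10 per kb in this lower leg muscle, at 6.10 CPM. Its values were 18.5, 14.6 and 15.8 CPM in 6M_UT, 15.8, 13.2 and 16.8 in 6M_PoW, 14.5, 10.7 and 12.1 in 9M_UT, 15.6, 14.1 and 19.6 in 9M_PoW+DT and 14.3, 16.3 and 14.1 in 6M_POW_LD. The lowest 2 of the 15 were both in 9M_UT. Hoxa10 was above Hoxa13 per kb in 10 of 15 libraries, and their ranges overlapped, so the order of this pair lies within the spread.

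Hoxa11 and Hoxc11 belong to the group that patterns the lower leg. Hoxc11 gave 11.6, 7.53 and 10.4 CPM in 6M_UT, 9.60, 6.39 and 9.80 in 6M_PoW, 8.30, 13.3 and 11.6 in 9M_UT, 9.03, 11.2 and 8.59 in 9M_PoW+DT and 10.2, 9.25 and 9.83 in 6M_POW_LD. Hoxa11 gave 8.89, 10.1 and 9.60 CPM in 6M_UT, 12.7, 9.05 and 10.6 in 6M_PoW, 11.1, 9.24 and 9.54 in 9M_UT, 12.8, 11.1 and 10.3 in 9M_PoW+DT and 10.4, 8.95 and 8.95 in 6M_POW_LD. Their levels were alike, at 4.84 CPM per kb for Hoxc11 and 4.47 for Hoxa11, and Hoxc11 was above Hoxa11 in 9 of 15 libraries with a ratio per kb between 0.798 and 1.63. Hoxd11 had at most 6 counts and was above the floor in 3 libraries. Hoxa11os, transcribed from the opposite strand across the start of Hoxa11, was the highest non-coding member, with 7.69, 6.08 and 6.54 CPM in 6M_UT, 5.95, 6.47 and 5.80 in 6M_PoW, 6.85, 7.76 and 5.90 in 9M_UT, 8.33, 6.61 and 7.58 in 9M_PoW+DT and 6.08, 5.62 and 6.00 in 6M_POW_LD. It overlaps Hoxa11 by 800 exon bases, 34.98% of the exon of Hoxa11, and both genes had fractional counts in all 15 libraries, so the division of reads between them is uncertain. Their sum ran from 14.6 to 21.1 CPM.

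Group 9 was expressed from 3 clusters. Hoxa9, known for its part in blood stem cells and leukaemia and studied in muscle stem cells of aged mice, gave 10.5, 12.2 and 13.2 CPM in 6M_UT, 14.5, 9.79 and 16.1 in 6M_PoW, 13.3, 12.98 and 13.6 in 9M_UT, 10.2, 8.72 and 11.1 in 9M_PoW+DT and 10.96, 15.3 and 11.6 in 6M_POW_LD. The lowest 3 values included 2 of 9M_PoW+DT, and the highest was in 6M_PoW. Hoxc9 gave 9.32, 8.77 and 10.1 CPM in 6M_UT, 10.7, 8.98 and 9.71 in 6M_PoW, 10.7, 11.2 and 10.1 in 9M_UT, 10.2, 10.6 and 11.6 in 9M_PoW+DT and 8.35, 7.53 and 9.15 in 6M_POW_LD, and its 2 lowest values were in 6M_POW_LD. Per kb, Hoxc9 stood at 4.03 CPM, Hoxa9 at 2.20 and Hoxd9 at 1.22, and Hoxc9 was above both in all 15 libraries. Over the longest transcript, rather than all annotated exons, the level of Hoxa9 was 3.80 CPM per kb. Hoxb9 stood far lower, at 0.123 CPM per kb, and had 0 counts in 2 libraries.

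The middle and 3′ genes of the A, C and D clusters spread over a wide range, from levels close to those of Hoxa9 downwards. Hoxd8 was the highest member of the D cluster, with 10.3, 5.09 and 5.98 CPM in 6M_UT, 6.65, 6.87 and 6.11 in 6M_PoW, 6.43, 12.4 and 6.54 in 9M_UT, 9.64, 7.18 and 8.96 in 9M_PoW+DT and 4.24, 4.34 and 6.69 in 6M_POW_LD. Its highest value was in replicate 2 of 9M_UT and the next in replicate 1 of 6M_UT. Hoxa7 gave 7.91, 7.85 and 6.28 CPM in 6M_UT, 6.74, 7.06 and 6.56 in 6M_PoW, 5.97, 7.43 and 6.54 in 9M_UT, 8.99, 7.69 and 5.91 in 9M_PoW+DT and 6.94, 7.94 and 6.29 in 6M_POW_LD. Hoxc4 gave 5.54, 5.94 and 4.01 CPM in 6M_UT, 6.23, 5.51 and 6.61 in 6M_PoW, 5.18, 5.50 and 6.49 in 9M_UT, 6.55, 5.77 and 5.13 in 9M_PoW+DT and 4.62, 4.01 and 5.48 in 6M_POW_LD. For Hoxa7 all groups overlapped, and for Hoxc4 the LD libraries lay below those of 6M_PoW. Hoxd8 stood at 2.61, Hoxa7 at 2.46 and Hoxc4 at 2.14 CPM per kb, and from Hoxd8 down to Hoxc4 no neighbour in the order was above the next in more than 10 of 15 libraries. Hoxa4 and Hoxa3 are best known from the neck and hindbrain levels of the embryo. Hoxa4 gave 3.01, 2.48 and 3.58 CPM in 6M_UT, 1.78, 1.85 and 2.34 in 6M_PoW, 2.61, 3.52 and 4.33 in 9M_UT, 2.43, 3.05 and 2.17 in 9M_PoW+DT and 3.85, 2.696 and 4.31 in 6M_POW_LD, with its 2 lowest values in 6M_PoW and its highest in 9M_UT and 6M_POW_LD. Hoxa3 gave 4.47, 3.29 and 6.5 CPM in 6M_UT, 4.59, 5.32 and 6.02 in 6M_PoW, 3.64, 4.51 and 2.16 in 9M_UT, 3.86, 3.33 and 2.40 in 9M_PoW+DT and 2.57, 6.22 and 5.16 in 6M_POW_LD, and its exons overlap the antisense RNAs Hoxaas2 and Hoxaas3. Hoxa3 stood at 0.710 CPM per kb and Hoxa4 at 1.84. Hoxa5, Hoxc6, Hoxc5 and Hoxd4 stood at 0.414 to 1.22 CPM per kb and Hoxa6, Hoxa2 and Hoxc8 at 0.323 to 0.350.

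**Figure D2:**
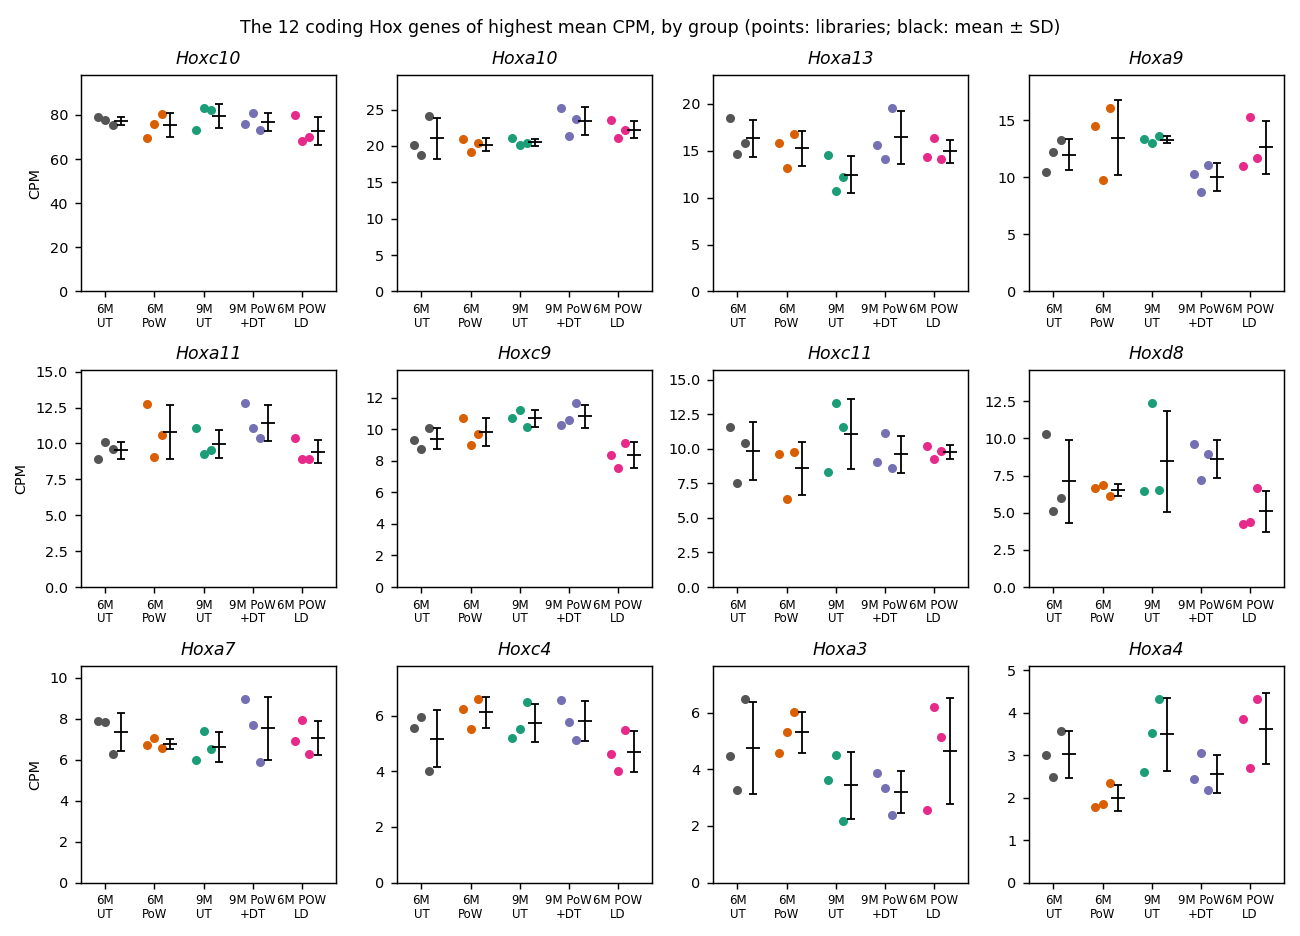
CPM of the 12 coding Hox genes of highest mean CPM, in each library by group; axes start at 0, points are libraries and the black bar beside each group is its mean ± SD (n = 3). Hoxc10 lies between 68.1 and 83.3 CPM in all groups, and Hoxa4 lies lowest in 6M_PoW.

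Every coding member of Hox B had low counts, with means of 4.47 (Hoxb8) to 22.1 (Hoxb3) per library. The 8 genes stood between 0.0705 CPM per kb (Hoxb8) and 0.350 (Hoxb6), and only Hoxb4 was above the floor in all 15 libraries. Together they summed to 1.97 to 6.65 CPM. Among the non-coding RNAs of this cluster Hoxb3os gave 0.258, 1.06 and 1.09 CPM in 6M_UT, 0.281, 0.259 and 0 in 6M_PoW, 0, 0 and 0.689 in 9M_UT, 0.130, 0.328 and 0 in 9M_PoW+DT and 0.128, 0.899 and 0.322 in 6M_POW_LD. It overlaps Hoxb3 by 2250 exon bases on the opposite strand, and where Hoxb3 was at 0, in replicate 3 of 6M_UT, Hoxb3os stood at its highest value. The sum of both genes ran from 0.770 to 2.23 CPM. In Hox D, Hoxd3os1 gave 0.215, 0.0707 and 0.262 CPM in 6M_UT, 0.234, 0.222 and 0.315 in 6M_PoW, 0.0933, 0.495 and 0.246 in 9M_UT, 0.0868, 0.704 and 0.277 in 9M_PoW+DT and 0.0428, 0.225 and 0.161 in 6M_POW_LD, with no group apart from the others. Hoxaas2 and Hoxaas3 stood at 0.475 and 0.147 CPM on average.

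As a whole, the 31 coding genes summed to 200.1 ± 10.2 CPM (SD, n = 3) in 6M_UT, 197 ± 12.1 in 6M_PoW, 202 ± 11.3 in 9M_UT, 203 ± 5.07 in 9M_PoW+DT and 192 ± 3.53 in 6M_POW_LD. Over the 15 libraries the sum ran from 185 to 214 CPM, a coefficient of variation of 4.38%. The order of the clusters by CPM (C, A, D, B) was the same in all 5 group means, but without Hoxc10 the Hox C sum was 25.5 to 34.5 CPM, below the 69.3 to 84.2 CPM of Hox A. Spread between libraries tended to be smaller for genes with more counts. For Hoxc10, with a mean of 1756 counts, the coefficient of variation was 6.25% against 2.39% from counting error alone, and for Hoxb4, with 15.4 counts, it was 52.2% against 25.5%. Some members spread more than others of like depth: Hoxd8 varied by 31.5% at 162 counts, where Hoxa7, at 164 counts, varied by 12.4%.

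**Figure D3:**
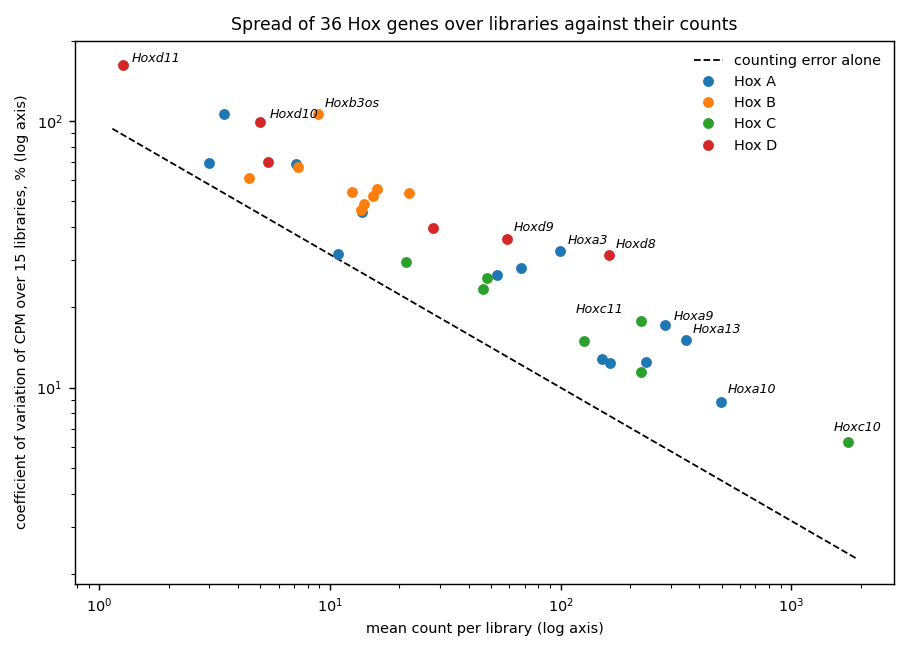
Coefficient of variation of CPM over the 15 libraries against the mean count per library, both on log axes, for the 36 members coloured by cluster; the dashed line is the spread from counting error alone. The spread falls as counts rise, from Hoxd11 (1.27 counts, 162%) to Hoxc10 (1756 counts, 6.25%). All 36 members lie above the line, by a factor of 1.04 (Hoxaas2) to 4.01 (Hoxd8) with a median of 1.91.

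For tests, 29 of the 36 members (26 coding) passed the filter on low counts. Hoxa6, Hoxaas3, Hoxb8, Hoxd10, Hoxd11 and Hoxd3os1 were among those not tested. Calls are adjusted p under 0.05 in edgeR's quasi-likelihood test, with the Benjamini-Hochberg adjustment over all genes tested. A fold change is on the log2 scale throughout. Shares of all genes called are those of edgeR. DESeq2 called more genes in all: 112 after training, 30 after detraining, 111 in the difference, 58 between ages in untrained mice and 173 over both conditions, 1190 for LD against untrained and 675 for LD against trained.

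Training, 6M_PoW against 6M_UT, asked whether running shifted Hox output in this muscle. Of the 29 members tested, edgeR called 0, as did DESeq2 and limma-voom, beside 0% of all 14919 genes tested called by edgeR and 112 genes called by DESeq2. At an unadjusted p under 0.05 there was 1 member (lower), in a comparison where 9.75% of all genes reached that level. This was Hoxa4: its values were 3.01, 2.48 and 3.58 CPM in 6M_UT and 1.78, 1.85 and 2.34 in 6M_PoW, which did not overlap, with a log2 fold change of -0.60 ± 0.27 (SE) (edgeR adjusted p = 0.484). With the LD libraries, which are titled as trained, added to 6M_PoW, its log2 fold change was -0.10 ± 0.28 (SE). With them added to 6M_UT instead, since the treatment field names them sedentary, it was -0.74 ± 0.24 (SE) (edgeR adjusted p = 0.459). Groups did not overlap for 3 members, Hoxa4, Hoxc5 and Hoxd4, all lower in 6M_PoW, beside 16.2% of all genes. Median log2 fold change over the 29 members was -0.04, against 0.00 over all genes. For Hoxc10 the fold change was -0.04 ± 0.08 (SE), with a 95% interval of -0.21 to 0.13, and for Hoxa10 it was -0.06 ± 0.11 (SE), with an interval of -0.29 to 0.17. Fibro-adipogenic progenitor markers summed to 378 to 409 CPM in 6M_UT and 507 to 631 in 6M_PoW, macrophage markers to 40.3 to 46.0 and 57.2 to 76.8 and endothelial markers to 273 to 318 and 342 to 376. Sums of pericyte and smooth muscle markers and of adipocyte markers were also apart, both higher in 6M_PoW. Of the 6 adipocyte markers, however, only Fabp4 was higher in fold change and 5 were lower. Fabp4 made up most of that sum, with a mean of 90.2 CPM in 6M_UT and 106 in 6M_PoW. The part of all these markers in the Hox values was not tested.

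After detraining, 9M_PoW+DT against 9M_UT, edgeR called 0 of the 29 members, as did DESeq2 and limma-voom, where 0.0201% of all genes were called. At an unadjusted p under 0.05 there were 3 members, in a comparison where 6.52% of all genes reached it. Hoxb7 gave 0.326, 0.0550 and 0.148 CPM in 9M_UT and 1.09, 0.469 and 0.370 in 9M_PoW+DT, a log2 fold change of 1.80 ± 0.70 (SE) on at most 25 counts per library (edgeR adjusted p = 0.697). Both groups of Hoxb7 were apart, the detrained one higher. Its counts in 9M_UT were 7, 1 and 3, so that replicates 2 and 3 were at or under the floor. Hoxa13 had a log2 fold change of 0.40 ± 0.16 (SE), with 14.5, 10.7 and 12.1 CPM in 9M_UT and 15.6, 14.1 and 19.6 in 9M_PoW+DT, where the groups overlapped (edgeR adjusted p = 0.703). Hoxa9 had a log2 fold change of -0.41 ± 0.17 (SE), with every detrained library below every untrained one (edgeR adjusted p = 0.735). Groups did not overlap for 4 members, 3 higher (Hoxa10, Hoxaas2 and Hoxb7) and 1 lower (Hoxa9), beside 11.9% of all genes. The directions in this comparison rest on the titles. With the 9-month groups exchanged, as the treatment field has them, each would reverse. Hoxc10 gave -0.05 ± 0.08 (SE) with a 95% interval of -0.22 to 0.12. Endothelial markers summed to 308 to 331 CPM in 9M_UT and 253 to 306 in 9M_PoW+DT, with 8 of 8 lower in fold change and 0 called. Adipocyte markers summed to 110 to 116 and 99.9 to 172 CPM, with 5 of 6 higher and 0 called. The part of both in the Hox values was not tested.

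**Figure D4:**
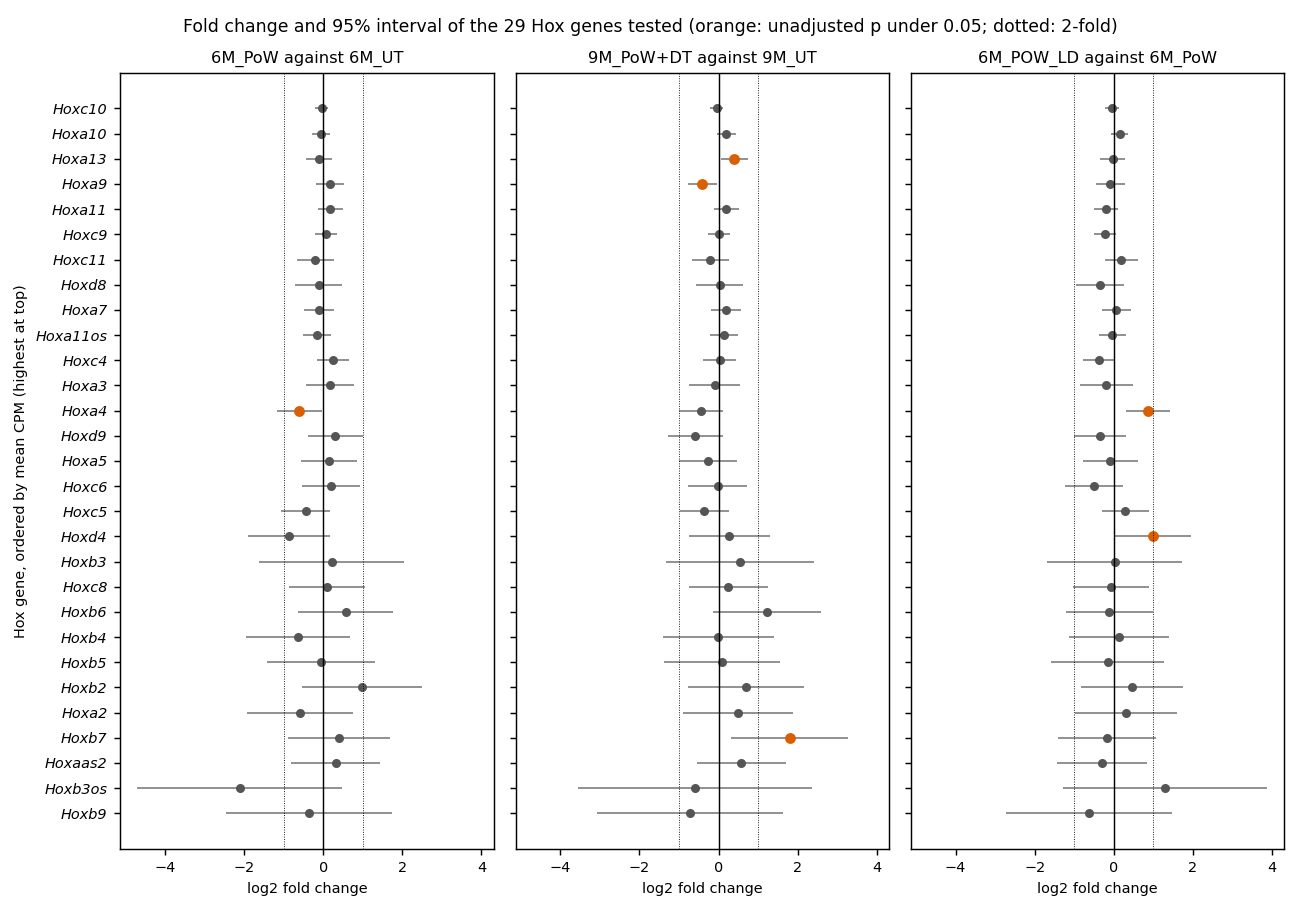
Log2 fold change with its 95% interval for the 29 Hox genes tested, ordered by mean CPM, in 3 comparisons from edgeR's quasi-likelihood fits; orange points have an unadjusted p under 0.05 and dotted lines mark a 2-fold change. Intervals of the high members lie close to 0, and those of Hox B members span more than 2-fold.

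In the test of the difference between the detraining and training effects, edgeR called 0 of 29 members, as did DESeq2 and limma-voom, beside 0.0268% of all genes. Hoxa9 and Hoxa13 reached an unadjusted p under 0.05, as did 9.48% of all genes. For Hoxa9 the detraining effect minus the training effect was -0.57 ± 0.24 (SE) (edgeR adjusted p = 0.467). For Hoxa13 the difference was 0.50 ± 0.22 (SE) (edgeR adjusted p = 0.495). With the 9-month groups exchanged, as the treatment field has them, the difference was 0.24 for Hoxa9 and -0.30 for Hoxa13, so its sign rests on the titles. How narrow the intervals were sets what these tests can show: the 95% interval of the fold change lay within 2-fold in both directions for 14 of 29 members after training and 15 after detraining, and within 1.5-fold for 8 and 7. For the other 15 and 14 members the interval reached a 2-fold change, and the B cluster genes were among these.

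Between ages, 9M_UT against 6M_UT, edgeR called 0 of 29 members, as did DESeq2 and limma-voom, beside 0.0134% of all genes. Hoxa13 and Hoxd9 reached an unadjusted p under 0.05, as did 6.72% of all genes. Hoxa13 gave 18.5, 14.6 and 15.8 CPM in 6M_UT and 14.5, 10.7 and 12.1 in 9M_UT, which did not overlap, and a log2 fold change of -0.39 ± 0.16 (SE) (edgeR adjusted p = 0.684). With the 9-month groups exchanged its fold change was 0.01. The same 9M_UT libraries enter the detraining, difference and age comparisons, so that the values of Hoxa13, and of Hoxb7, in them are not independent. Hoxd9 had 2.75, 1.56 and 2.18 CPM in 6M_UT and 2.84, 5.61 and 2.51 in 9M_UT, where replicate 2 of 9M_UT stood out and the groups overlapped. Its fold change was 0.75 ± 0.33 (SE) (edgeR adjusted p = 0.724), and 0.31 without that library. Groups did not overlap for 4 members, with Hoxa13, Hoxb6 and Hoxb7 lower and Hoxc9 higher at 9 months, beside 11.8% of all genes. Fibro-adipogenic progenitor markers summed to 378 to 409 CPM in 6M_UT and 447 to 488 in 9M_UT, and macrophage markers to 40.3 to 46.0 and 52.5 to 59.7. Adipocyte markers summed to 97.8 to 103 and 110 to 116 CPM, with 3 of 6 higher and 3 lower in fold change. The part of these markers in the Hox values was not tested. Over both conditions, where each age had 6 libraries, edgeR called 0 of 29 members, as did DESeq2 and limma-voom, beside 0.308% of all genes. Hoxa3 was the 1 member at an unadjusted p under 0.05, as were 9.95% of all genes, with a log2 fold change of -0.60 ± 0.21 (SE) (edgeR adjusted p = 0.328). All 29 members overlapped between the ages, beside 0.516% of all genes whose ages did not overlap.

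The LD libraries, set against the other 6-month groups, gave the highest shares of called genes of all comparisons of 2 groups. Against 6M_UT, edgeR called 0 of 29 members, as did DESeq2 and limma-voom, beside 4.99% of all 15181 genes tested. Hoxb2 was the 1 member at an unadjusted p under 0.05, as were 20% of all genes: it gave 0.473, 0.0354 and 0.436 CPM in 6M_UT and 0.856, 0.674 and 1.01 in 6M_POW_LD, a log2 fold change of 1.44 ± 0.65 (SE) (edgeR adjusted p = 0.223). Replicate 2 of 6M_UT held 1.37 counts of Hoxb2, and the most in any library was 25. Of the exon bases of Hoxb2, 27.3% overlap Hoxb3os on the opposite strand, and its value is uncertain. Groups did not overlap for 3 members (Hoxb2 higher, Hoxa11os and Hoxb9 lower in LD), beside 25.2% of all genes. Against 6M_PoW, edgeR called 0 of 29 members and limma-voom 0, beside 2.4% of all genes called by edgeR. DESeq2 called 1 member, Hoxa4, among the 675 genes it called in all. Hoxa4 and Hoxd4 reached an unadjusted p under 0.05 in edgeR, as did 14.3% of all genes. Hoxa4 gave 1.78, 1.85 and 2.34 CPM in 6M_PoW and 3.85, 2.696 and 4.31 in 6M_POW_LD, with every LD library higher. Its fold change was 0.86 ± 0.27 (SE) (edgeR adjusted p = 0.1002), and its DESeq2 adjusted p was 0.0472. Over the 21 alternatives its adjusted p ran from 0.0472 to 0.320. Both Hoxa4 comparisons use the same 6M_PoW libraries. Hoxd4 had 0.936, 0.702 and 0.629 CPM in 6M_PoW and 1.63, 1.69 and 1.21 in 6M_POW_LD, a log2 fold change of 0.99 ± 0.46 (SE) (edgeR adjusted p = 0.328). Of the exon bases of Hoxd4, 50.9% are shared with other annotated genes, and its value is uncertain. Groups did not overlap for 4 members (Hoxa10, Hoxa4 and Hoxd4 higher, Hoxc4 lower), beside 21.4% of all genes. In the test of any difference among the 5 groups, edgeR called 0 of 29 members, as did DESeq2 and limma-voom, beside 4.49% of all genes, and Hoxa4 was the 1 member at an unadjusted p under 0.05, as were 19.6% of all genes. Against 6M_UT, marker sums of fibro-adipogenic progenitors (518 to 656 CPM in LD), tenocytes (107 to 136), endothelium (322 to 375), macrophages (62.3 to 74.3), nerve and pericytes and smooth muscle (393 to 417) were all apart and higher in LD. In the LD libraries nerve markers reached 180 CPM in replicate 5 (48.1 to 75.7 in the other 14 libraries) and blood markers 3110 CPM in replicate 6 (326 to 1039 in the others), and the part of all these in the Hox values was not tested.

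Replicate 2 of 9M_UT held the highest value of Hoxd8, Hoxd9 and Hoxd10 over the 15 libraries and the lowest of Hoxa13 and Hoxc8. In Hox B it held the highest value of Hoxb5, on 21 counts, and the lowest of Hoxb6 and Hoxb7, on 3 and 1 counts. It also held the highest value of Hoxc10 (83.3 CPM, next 82.1) and Hoxc11 (13.3 CPM, next 11.6), so its high values were not limited to HoxD. Hoxd9 was at 5.61 CPM there, against a next value of 3.37, and Hoxd10 at 0.990 against 0.3425. The library was second highest for Hoxd4 and Hoxd3os1. Hoxd11 was at 0 counts in 10 of the 15 libraries, this one among them. Its Hoxd8 count was 225, its Hoxd9 count 102 and its Hoxd10 count 18, against 0 to 8 counts of Hoxd10 in the other 14 libraries. The coding HoxD sum was 20.9 CPM there and 8.13 to 14.4 CPM elsewhere. Hoxd8 per kb was 0.103 of Hoxc10 in that library and 0.0369 to 0.0908 of it in the others. This library was the shallowest of the 15, held the lowest sum of nerve markers, 48.1 CPM, and the second highest of fast fibre markers, 87231 CPM, and their part in the HoxD values was not tested. Without it, the log2 fold change of Hoxa13 was -0.29 between ages and 0.30 after detraining.

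**Figure D5:**
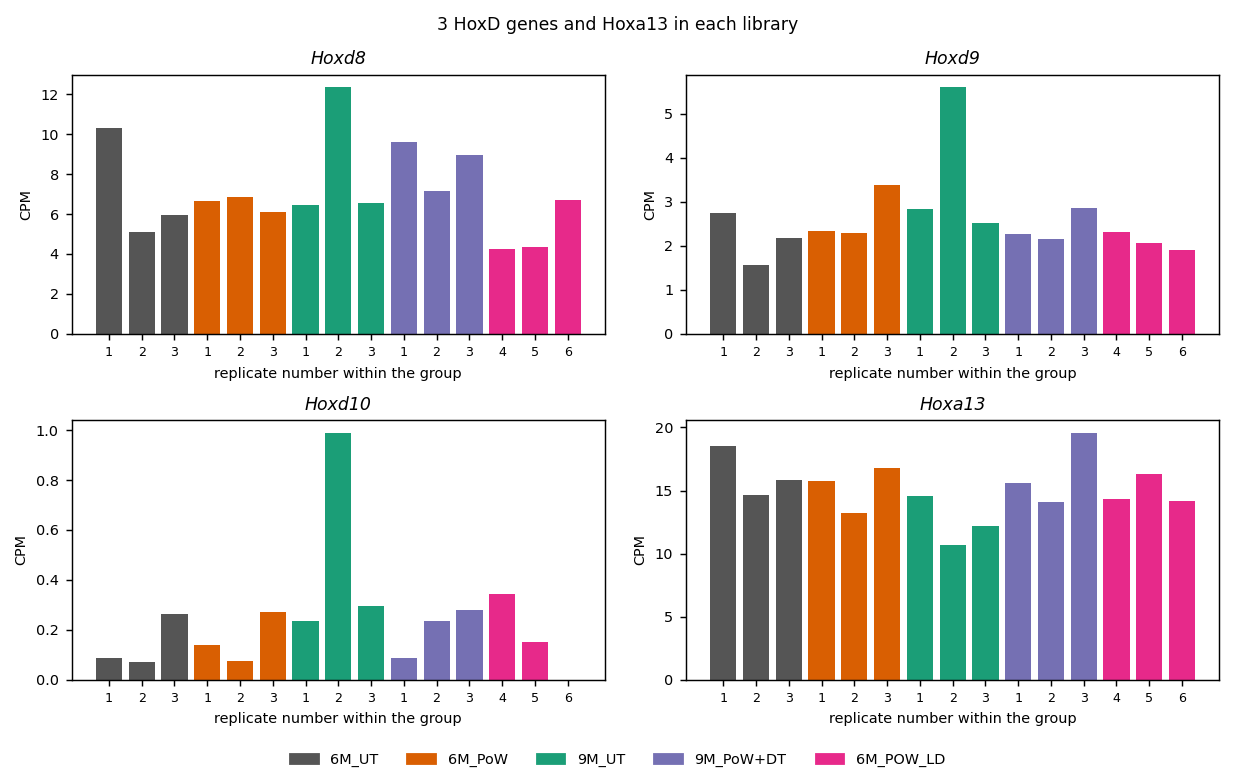
CPM of Hoxd8, Hoxd9, Hoxd10 and Hoxa13 in each of the 15 libraries, as bars from 0 coloured by group and labelled with the replicate number. Replicate 2 of 9M_UT is the highest for the 3 HoxD genes, with 0.990 CPM of Hoxd10, and the lowest for Hoxa13, with 10.7 CPM.

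Genes that act with the Hox proteins or on the clusters were followed as lists. Of 8 Hox cofactors measured, all tested, Pknox2 was the only one called, in both LD comparisons and in the test of any difference among the 5 groups, beside 4.99%, 2.4% and 4.49% of all genes. Pknox2, a homeobox partner of PBX proteins, stood at 29.9 ± 0.889 CPM (SD, n = 3) in 6M_UT, 28.9 ± 2.84 in 6M_PoW, 32.6 ± 1.67 in 9M_UT, 34.9 ± 2.07 in 9M_PoW+DT and 39.9 ± 1.66 in 6M_POW_LD. Its log2 fold change was 0.42 ± 0.09 (SE) for LD against untrained (edgeR adjusted p = 0.0113) and 0.46 ± 0.09 (SE) for LD against trained (edgeR adjusted p = 0.00823). Pknox1 averaged 14.1 CPM over all libraries, Meis1 1.67 and Meis2 0.417.

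Of 41 Polycomb and Trithorax genes, 0 were called after training, after detraining, in the difference or between ages, and 2 were lower in LD against untrained, a share close to the 4.99% of all genes called there. These were Bmi1 and Pcgf5, subunits of Polycomb repressive complex 1. Pcgf5 was 65.3 ± 1.05 CPM in 6M_UT and 49.95 ± 4.15 in 6M_POW_LD, a log2 fold change of -0.39 ± 0.08 (SE) (edgeR adjusted p = 0.00795). Bmi1 was 52.8 ± 1.09 and 43.0 ± 0.967 CPM, a log2 fold change of -0.29 ± 0.08 (SE) (edgeR adjusted p = 0.0393). Against the trained libraries 0 of the 41 were called, with 8 at an unadjusted p under 0.05, beside 2.4% and 14.3% of all genes. In the same LD against untrained comparison, all 10 fibro-adipogenic progenitor markers were higher in fold change. Of these, 4 were called (Cd34, Dcn, Lum and Pdgfra), beside 4.99% of all genes. The 10 markers summed to 378 to 409 CPM in 6M_UT and 518 to 656 in 6M_POW_LD, and their part in the Polycomb values was not tested. Ezh1 averaged 36.9 CPM and Ezh2, the other methyltransferase of Polycomb repressive complex 2, 3.46 CPM.

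Limb identity genes gave 17 measured members, 14 of them tested and 0 called in any comparison. Tbx4, the T-box gene of the hindlimb, stood at 0.878 to 2.81 CPM and was detected in all libraries, while Pitx1, which sets hindlimb identity upstream of it in the embryo, had 0 to 17 counts. Lbx1 and Tbx15, known from limb muscle precursors and from glycolytic fibres, stood at 91.8 ± 6.74 and 362 ± 43.0 CPM (SD, n = 15). Other non-coding RNAs of the clusters were scarce. Hotair, from the 5′ end of Hox C, was the 1 of 4 measured that was tested, with 0.323 to 1.92 CPM and no call. Hottip, at the 5′ end of Hox A beside Hoxa13, had at most 15 counts and Hotairm1, at the 3′ end, at most 4.

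Of 9 neighbours of the clusters that are not Hox genes, Atp5g1, a subunit gene of mitochondrial ATP synthase beside Hox B, was the only one called in a comparison of 2 groups or 2 ages. It was 115 ± 10.2 CPM in 6M_UT, 132 ± 10.99 in 6M_PoW, 94.5 ± 3.56 in 9M_UT, 104 ± 6.70 in 9M_PoW+DT and 100.2 ± 10.1 in 6M_POW_LD. Its log2 fold change was -0.31 ± 0.06 (SE) between ages over both conditions (edgeR adjusted p = 0.0436) and -0.39 ± 0.09 (SE) for LD against trained (edgeR adjusted p = 0.0230), where 0.308% and 2.4% of all genes were called. In neither of these comparisons was a B cluster gene called.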

How the data were processed

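Expression was measured by RNA sequencing in 15 mouse plantaris libraries of 5 groups. Expected counts per gene were deposited by the authors as 1 table. STAR 2.7.3a, DESeq2 and Partek and the build mm10 are named, without roles, per the submitters' processing notes. How reads were counted, and whether by strand, was not found in these sources, so overlapping and antisense genes are uncertain. Of the genes, 19711 of 20406 matched GENCODE M21 (GRCm38, mm10) by symbol and coordinates, as did all 36 members, which gave exon lengths. The smallest sum of a gene over the libraries was 10.

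Expected counts were rounded. Genes passing filterByExpr, 14919 over the 12 libraries without LD and 15181 over all 15, were fitted in edgeR 4.0.16 (R 4.3.3; quasi-likelihood, robust, trimmed mean of M values, 1 mean per group), with adjustment over all genes. Comparisons without LD came from the 12 libraries and those with LD from all 15. DESeq2 1.42.0 and limma 3.58.1 were alternatives. The fit was tested on simulated data. Totals were 18865048 to 27688842 counts, and members with few counts have wide intervals, which cover counting error and spread together.

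Given library by library were the 12 coding members of highest mean CPM, the highest non-coding member of each cluster, any called member and the member of smallest p in each comparison. Lists covered cofactors, Polycomb and Trithorax genes, limb identity, neighbours, other non-coding RNAs, other axis homeobox genes and markers of 12 cell types or fibres. The members and lists were chosen with earlier results of these data known. Values of some single genes are not reported here.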

Additional observations from a re-analysis of the deposited data

How the results depend on the processing

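Scaling by DESeq2 size factors, DESeq2, limma-voom, no filter, a stricter filter, the fit of all 15 libraries, other readings of the labels and overlapping Hox pairs summed (the last chosen after seeing the data) left the count of called members at 0 in every comparison but one. For LD against trained DESeq2 called 1, Hoxa4, with a log2 fold change of 0.86, among the 675 genes it called in all. The cause was not tested. Leaving out each library in turn gave counts of 0 to 0 in all 8 comparisons. With the replicate number as a block, 0 members were called; same-numbered libraries correlated at -0.314 to 0.240 (18 pairs), and 3 of 12 correlated best with their own number. The LD comparisons had no block, since their numbers are not shared. Of 714 alternative values of 34 single fold changes, 690 kept their direction. These did not include the exchange of the 9-month groups for detraining, which reverses every detraining fold change. For training with LD added to the trained group, the fold change was 0.013 for Hoxa10 and -0.0504 for Hoxc9, and -0.10 in place of -0.60 for Hoxa4. For training with LD added to the untrained group, it was 0.0067 for Hoxc10, 0.10 for Hoxd8 and -0.74 for Hoxa4. With the 9-month groups exchanged, it was 0.24 for Hoxa9 and -0.30 for Hoxa13 in the difference and 0.0114 for Hoxa13 between ages. The exchange reverses the detraining effect and puts the 9M_PoW+DT libraries in place of 9M_UT. For the values with LD added, the cause was not tested. Leaving out 1 library gave ranges across 0 after training for Hoxa13 (-0.17 to 0.0025), Hoxd8 (-0.32 to 0.24), Hoxa3 (-0.0459 to 0.46), Hoxa10 (-0.14 to 0.0512), Hoxc10 (-0.0803 to 0.0154) and Hoxc9 (-0.0071 to 0.12), and after detraining for Hoxd8 (-0.13 to 0.41), Hoxc4 (-0.0706 to 0.13), Hoxa3 (-0.34 to 0.14) and Hoxc9 (-0.0379 to 0.0565). Without the 10 most abundant genes in the total, the level of Hoxc10 was 103.2 CPM. Depth limits the Hox B genes, Hoxd10 and Hoxd11 most.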
